A study of Sus scrofa with 18 samples.

Results

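The DEAD and DEAH box RNA helicases were followed through the first cleavages of porcine parthenogenetic embryos. The members were the rows of the deposited expression table whose name starts with DDX or DHX and a digit, DDX4 left out, and they came to 47 of 20983 genes, 31 named DDX and 16 named DHX. Embryos of 2, 4 or 8 cells were examined after maturation of their oocytes in DMEM or in FLI, with 3 libraries for each combination of stage and medium and 18 libraries in all. The DMEM group matured in Dulbecco's modified Eagle medium and the FLI group in a medium based on TCM 199. Both media held gonadotropins, EGF, IGF1 and FGF2, the last written as FGF for DMEM in the methods of the study. The stated amounts of EGF, IGF1 and FGF differed, with EGF in ng/ml for DMEM and in IU/ml for FLI. LIF was stated for FLI alone. The oocytes of both groups came from ovaries of slaughtered gilts, were activated with ionomycin and 6-DMAP, and the embryos then grew in PZM-3. Each library was made from a pool of embryos. Parthenogenetic embryos carry maternal genomes only, which limits them as a model of fertilised embryos. The sources used here do not say that the pools came from separate collections of oocytes, so the p-values measure the spread between these pools. In such bulk samples, fewer cells of a type and less RNA per cell cannot be told apart.

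DEAD and DEAH box proteins are ATPases that unwind short RNA duplexes or strip proteins from RNA. They are named after the amino acids of a conserved ATP-binding motif, and most serve a single step of ribosome assembly, splicing, nuclear export, translation or RNA decay. In early mammalian embryos the RNAs stored by the oocyte are degraded while the embryonic genome starts to be transcribed, which in the pig takes place mainly around the 4-cell stage.

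Count totals of the libraries lay between 1737985 and 6781185 with a median of 4581572. A count of 0 allowed a level of up to 0.428 to 1.74 CPM, by a floor of 3 counts and for counting error only. CPM are counts scaled to the library total after TMM normalization, and TPM are deposited values that are also corrected for transcript length. Both are relative to the RNA of the library, so a rise or fall here need not be one in RNA per embryo. The scales did not always change alike between stages. From the 2-cell to the 4-cell stage DDX21 changed little by CPM and was lower by TPM. A small change, or the lack of one, on 1 scale thus need not hold on the other, and tests were run on counts alone. All 47 members passed the filter on low counts, which kept 13187 genes. Of 10 markers of the oocyte, 9 were in the table and their summed level was between 6368 and 6955 CPM in the 2-cell libraries. The sum was 1192 to 3186 CPM in the 4-cell libraries and 286 to 3906 CPM in the 8-cell libraries, where FIGLA was at 0 in all 3 DMEM libraries. The 9 cumulus and granulosa markers of the table summed to 0.96 to 2.28 CPM in the 2-cell libraries. Their sum was 7.03 to 21.1 CPM in the 4-cell and 5.71 to 19.5 CPM in the 8-cell libraries, with STAR as the 1 that passed the filter on low counts. The 5 blood and immune markers summed to 2.21 to 15.9 CPM. Of the 8-cell libraries, 3 stood apart. DMEM replicate 1 had the smallest count total. FLI replicate 2 had a mean correlation of log2 CPM with the 2-cell libraries of 0.831, against 0.594 and 0.71 for the other 8-cell FLI libraries, and FLI replicate 3 had the most genes detected, 18595. Counts of members called at the 8-cell stage are given with and without them, and so are some of the calls they change.

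Together the helicases took up a larger part of the RNA at the 4-cell stage than at the 2-cell stage. They held between 0.657% and 0.7% of the counts of a 2-cell library, between 1.08% and 1.16% of a 4-cell library and between 0.937% and 1.1% of an 8-cell library. On the TPM scale their sum was 5203 to 5608 TPM in 2-cell, 7319 to 7693 TPM in 4-cell and 5472 to 7434 TPM in 8-cell libraries, so that the 2-cell and 4-cell libraries did not overlap on either scale. Without the 3 libraries that stood apart the 8-cell range was 0.984% to 1.1% of the counts and 5895 to 6929.9 TPM. The order of the members by level per length also changed. In 2-cell DMEM embryos the leading member was DDX21, a nucleolar helicase of rRNA transcription and processing, at 719 ± 22.1 TPM (SD, n = 3), followed by DDX18, a helicase of the large ribosomal subunit, at 597 ± 65 TPM. At the 4-cell stage DDX18 led in the same medium with 697 ± 29.8 TPM, and DDX3X, a helicase of translation initiation, came next with 654 ± 56 TPM, a difference smaller than the SD of the latter. At the 8-cell stage DDX3X had the highest mean in both media, with 649 ± 115 TPM in DMEM and 722 ± 33.8 TPM in FLI. It led in the 3 8-cell libraries that did not stand apart, with 759 and 658 TPM in DMEM and 716 TPM in FLI, whereas DDX18 led in DMEM replicate 1 and DDX21 in FLI replicate 2. The testis helicase DDX25 was the lowest member, with a mean of 2.37 TPM over the libraries and at most 3.21 CPM in any of them.

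**Figure D1:**
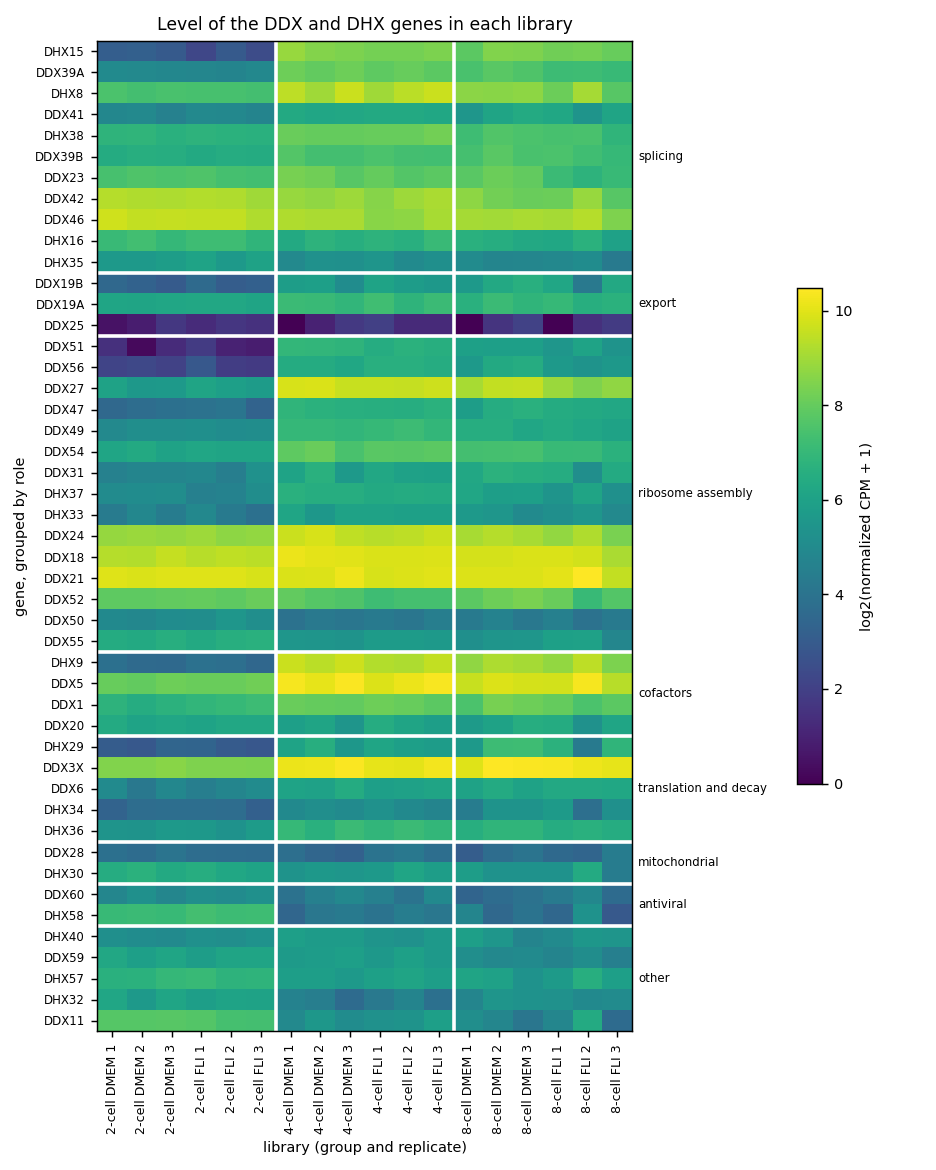
Level of the 47 DDX and DHX genes (vertical axis, grouped by role and ordered within a role by the change from the 2-cell to the 4-cell stage in DMEM) in the 18 libraries (horizontal axis), as the colour scale of log2(normalized CPM + 1). The 2-cell columns differ from the 4-cell columns in most rows, while 8-cell FLI replicate 2 is the 8-cell column with the highest DHX58 and DDX11.

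The first comparison asked how the helicases changed from the 2-cell to the 4-cell stage within each medium. Most of the family rose: 29 of 47 members were higher in 4-cell than in 2-cell embryos of the DMEM group at an adjusted p under 0.05 (61.7%, against 35.2% of all genes tested), and 9 were lower (19.1%, against 28.4% of all genes). In the FLI group 27 members were higher (57.4%, against 34.6%) and 9 were lower (19.1%, against 27.2%). The median log2 fold change of the family was 0.96 in DMEM, where that of all genes was 0.16, and 0.97 in FLI, where it was 0.18. In both media 27 members rose and 7 fell, and no member rose in one medium and fell in the other. All 4-cell libraries were above all 2-cell libraries for 29 members and below for 12 in DMEM, against 38.7% and 35.6% of all genes. For FLI these were 29 and 10 members, against 39.6% and 35%. By name, all 16 DHX genes passed in DMEM, with 10 higher and 6 lower, and of the 31 DDX genes 19 were higher, 3 lower and 9 did not pass. In FLI 9 DHX genes were higher, 4 lower and 3 did not pass, and 18 DDX genes were higher, 5 lower and 8 did not pass. The DMEM calls of DHX40, DHX35, DHX16, DDX23 and DDX24 were kept in 15, 20, 22, 22 and 25 of 26 settings. The FLI calls of DDX18, DDX24, DDX46, DDX52 and DHX35 were kept in 12, 23, 24, 25 and 25. No interaction of medium with this step passed for any of the 13187 genes.

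**Figure D2:**
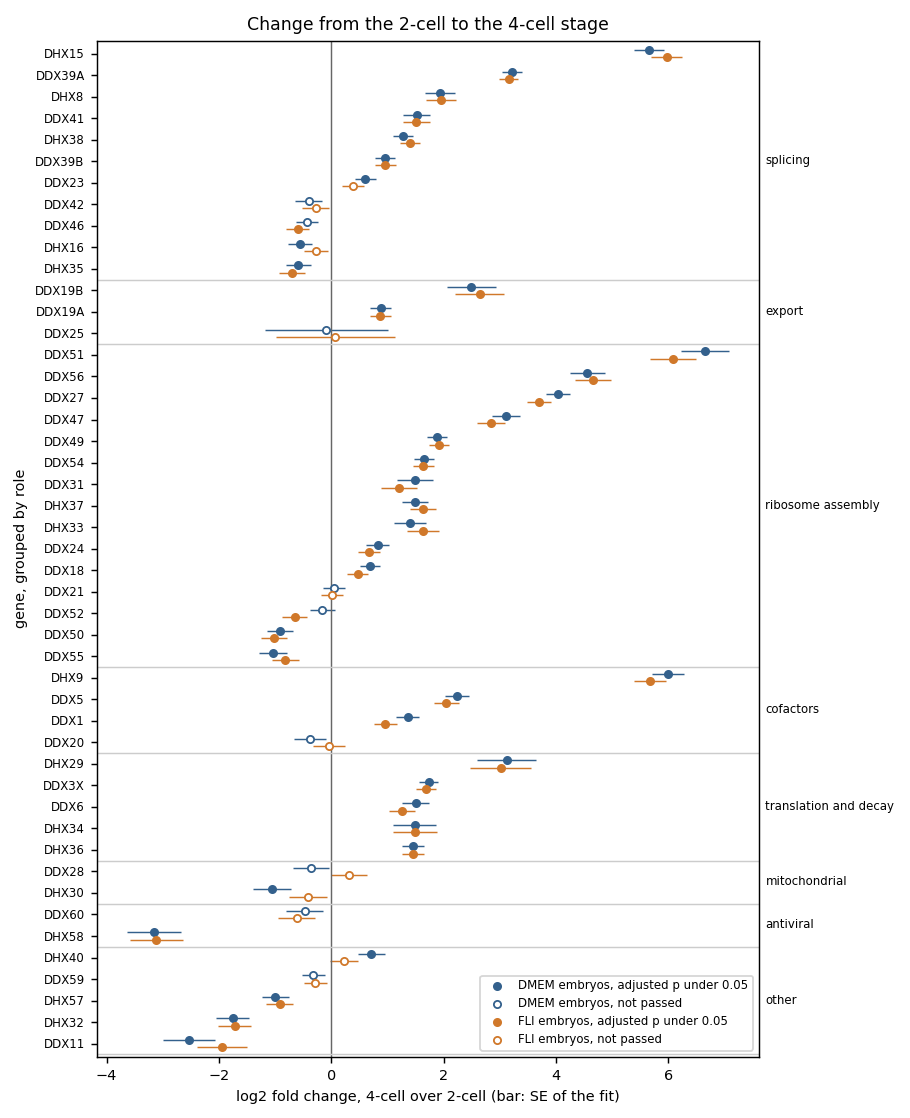
Log2 fold change from the 2-cell to the 4-cell stage (horizontal axis, bars are the SE of the fit over 3 libraries a group) for the 47 genes (vertical axis, grouped by role), in DMEM (blue) and FLI (orange). Filled points passed an adjusted p of 0.05; DDX51, DHX9 and DHX15 lie furthest to the right and DHX58 furthest to the left in both media.

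The 15 helicases of ribosome assembly included the largest rise. In DMEM 11 of them rose and 2 fell (median log2 fold change 1.49), and in FLI 11 rose and 3 fell (median 1.63). Among all genes 35.2% rose and 28.4% fell in DMEM, and 34.6% and 27.2% in FLI. DDX51, which acts in the maturation of the large subunit and lies on chromosome 14, 23262776 to 23270896 of Sscrofa11.1, had 1.73, 0.192 and 1.43 CPM in the 2-cell DMEM libraries and 2.58, 1.01 and 0.807 CPM in the 2-cell FLI libraries, from between 1 and 10 counts a library. At the 4-cell stage it had 120.5, 117 and 111 CPM in DMEM and 87.6, 102 and 94.1 CPM in FLI. It was thus near the limit of counting in every 2-cell library and far above it in every 4-cell library. The log2 fold change was 6.66 (adjusted p = 2.39e-10, SE 0.422) in DMEM and 6.09 (adjusted p = 7.43e-10, SE 0.417) in FLI, and its size depends on those few counts.

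DDX56, a nucleolar helicase of the same subunit on chromosome 18, 50705632 to 50715033, was also low at the 2-cell stage, with 3.46, 3.84 and 3.14 CPM in DMEM and 6.30, 2.69 and 2.42 CPM in FLI. It had 87, 85.3 and 75.1 CPM and 95.7, 95.7 and 87.6 CPM in the 4-cell libraries of the 2 media, with no overlap between the stages. Its log2 fold change was 4.56 (adjusted p = 7.35e-10, SE 0.316) in DMEM and 4.66 (adjusted p = 7.74e-10, SE 0.32) in FLI. DDX27, a partner of the large-subunit assembly complex PeBoW on chromosome 17, 50903284 to 50924807, started from a higher level. It rose from 64.3, 46.3 and 48.1 CPM to 915, 926 and 763 CPM in DMEM and from 67.6, 58.3 and 53.3 CPM to 762, 748 and 819.9 CPM in FLI. With a log2 fold change of 4.04 (adjusted p = 2.86e-11, SE 0.214) in DMEM, or 16.4-fold, it went from rank 25 to rank 4 of the family by TPM.

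The other risers of this group moved less. DDX47, which takes part in early pre-rRNA processing, had log2 fold changes of 3.11 in DMEM and 2.84 in FLI. DDX49, DDX54, DDX31, DHX37 and DHX33, all nucleolar proteins of rRNA transcription or subunit maturation, rose by log2 fold changes of 1.40 to 1.88 in DMEM and 1.20 to 1.92 in FLI. DDX54 overlaps CFAP73 and RITA1 on the opposite strand, and whether the counting used strand is not given in the sources used here. DDX24, a helicase of the large subunit, rose by 0.83 and 0.67.

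The most abundant members of this group changed little by CPM. DDX18 on chromosome 15, 23425669 to 23442980 had the highest mean level per length of the family, 619 TPM over all libraries. Its 2-cell libraries held 639.5, 619.5 and 743 CPM in DMEM and 653, 707 and 677 CPM in FLI, and its 4-cell libraries 1135, 1053 and 1037 CPM and 932, 927 and 961 CPM. By CPM the 4-cell libraries were all above the 2-cell libraries, with a log2 fold change of 0.69 (adjusted p = 0.00296, SE 0.18) in DMEM and of 0.47 (adjusted p = 0.0305, SE 0.18) in FLI. By TPM the stages overlapped in both media. The FLI call was kept in 12 of 26 settings. DDX21 had log2 fold changes of 0.06 in DMEM and 0.01 in FLI on the count scale and did not pass in either. By TPM it was lower at the 4-cell stage, without overlap. It went from 719 ± 22.1 to 542 ± 68.2 TPM in DMEM and from 709 ± 43.6 to 547 ± 10.5 TPM in FLI.

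Against the direction of the group, DDX55, a large-subunit helicase, and DDX50, the closest relative of DDX21, fell in both media. DDX50 and DDX21 are neighbours on chromosome 14, where DDX50 ends at 72030980 and DDX21 begins at 72039982, and reads that fit both could have been split between them. DDX50 was the far smaller of the pair, with 43.9 ± 4.18 TPM in 2-cell and 16.9 ± 2.23 TPM in 4-cell DMEM embryos. Its log2 fold change on the count scale was -0.92 (adjusted p = 0.00254, SE 0.235) in DMEM and -1.02 (adjusted p = 0.00105, SE 0.234) in FLI. That of DDX55 was -1.03 (adjusted p = 0.00137, SE 0.245) and -0.82 (adjusted p = 0.00725, SE 0.243). DDX52, a helicase of the small subunit known from yeast, passed in FLI alone, with -0.65 there and -0.16 in DMEM.

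Among the 11 helicases of splicing, 7 rose and 2 fell in DMEM (median log2 fold change 0.96), and 6 rose and 2 fell in FLI (median 0.97). Shares of all genes were 35.2% higher and 28.4% lower in DMEM, and 34.6% and 27.2% in FLI. DHX15, the vertebrate counterpart of yeast Prp43 that takes spent spliceosomes apart, lies on chromosome 8, 18563807 to 18620909. It had 7.79, 8.26 and 6.85 CPM in 2-cell DMEM libraries and 3.72, 6.72 and 4.44 CPM in 2-cell FLI libraries. At the 4-cell stage it had 457, 366 and 337 CPM in DMEM and 308, 311 and 338 CPM in FLI, so that the lowest 4-cell library lay far above the highest 2-cell library. The log2 fold change was 5.66 (adjusted p = 8.42e-12, SE 0.264) in DMEM and 5.97 (adjusted p = 9.16e-12, SE 0.272) in FLI, or 50.7-fold and 62.7-fold.

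DDX39A, which loads onto mRNA for export and has a closely related copy in DDX39B, rose from 31.4, 29.2 and 27.7 CPM to 286, 248 and 289 CPM in DMEM. In FLI it rose from 26.6, 25.7 and 28.5 CPM to 234, 263 and 225 CPM, again without overlap. On the log2 scale the change was 3.22 (adjusted p = 3.41e-11, SE 0.174) in DMEM and 3.16 (adjusted p = 5.4e-11, SE 0.174) in FLI. On the length-corrected scale this turned the order of the pair around. DDX39A had 59.7 ± 2.74 TPM and DDX39B 86.6 ± 5.46 TPM in 2-cell DMEM embryos, and at the 4-cell stage the former had 403 ± 19.9 TPM and the latter 122 ± 13 TPM. Reads that fit both DDX39A and DDX39B could have been split between them, which limits the comparison of their levels. DDX39A overlaps ADGRE5 and DDX39B overlaps MCCD1 and NFKBIL1, in each case on the opposite strand.

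The helicases that drive single steps of the spliceosome cycle went different ways. DHX38, needed for the second catalytic step, rose by 1.27 in DMEM and 1.40 in FLI, and DHX8, which releases the spliced mRNA, by 1.94 and 1.96. DDX41, a spliceosome protein also known as a sensor of nucleic acids, rose by 1.52 and 1.51. DDX23, which helps the tri-snRNP join, rose in DMEM (0.61 (adjusted p = 0.00893, SE 0.187)), a call kept in 22 of 26 settings, and had 0.39 (adjusted p = 0.0796, SE 0.187) in FLI. DDX46, which acts when the U2 particle binds, fell in FLI (-0.60 (adjusted p = 0.0157, SE 0.201)) with -0.43 in DMEM. DHX16, which activates the assembled spliceosome, fell in DMEM (-0.56 (adjusted p = 0.0288, SE 0.212)) with -0.27 in FLI and overlaps C6orf136 on the opposite strand. DHX35, a component of the catalytic spliceosome, fell by -0.58 in DMEM and -0.70 in FLI. DDX42, a partner of the SF3b complex with the highest mean TPM of this group, had 635, 599 and 576 CPM in 2-cell and 459, 420.1 and 491 CPM in 4-cell DMEM libraries. Its FLI libraries held 621, 603 and 506 CPM and 382, 485 and 561 CPM. The stages were apart in DMEM and overlapped in FLI, and neither change passed (adjusted p = 0.155 and 0.334).

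**Figure D3:**
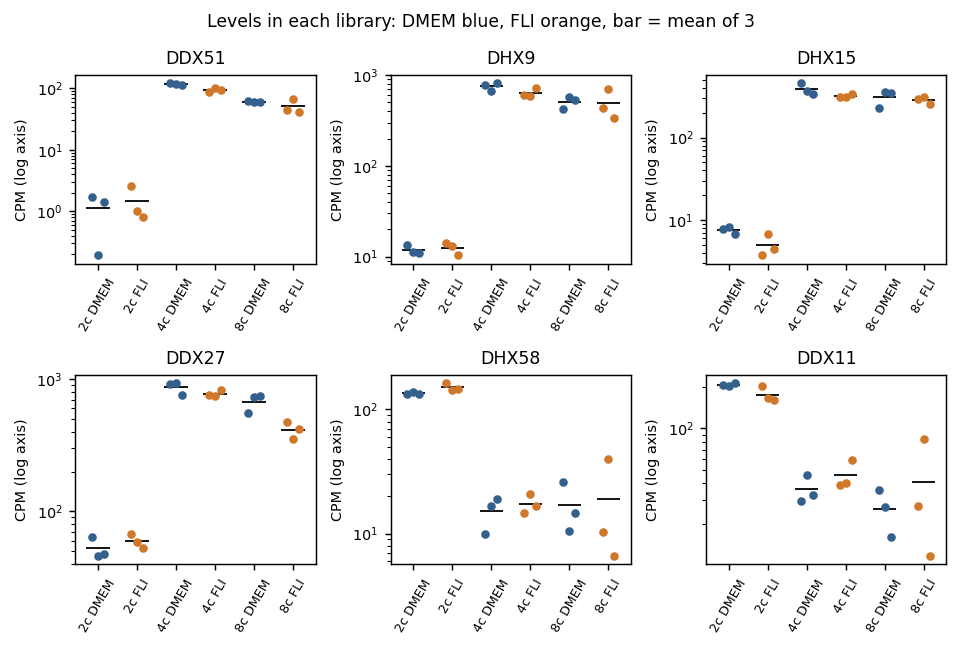
CPM on a log axis in each of the 3 libraries (points) of the 6 groups of stage (2c, 4c, 8c) and medium (DMEM blue, FLI orange), with the mean as a bar, for 6 genes. DDX51, DHX9, DHX15 and DDX27 are higher in all 4-cell than in all 2-cell libraries, DHX58 and DDX11 lower, and 8-cell FLI replicate 2 is the highest 8-cell library for the last 2 genes, at 40 and 84.1 CPM.

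Of the 4 cofactors of transcription and RNA processing, 3 rose in both media (median log2 fold change 1.80 in DMEM and 1.51 in FLI). Among all genes 35.2% rose in DMEM and 34.6% in FLI. DHX9, or RNA helicase A, which links RNA polymerase II to coactivators and resolves RNA structures, lies on chromosome 9, 124141970 to 124185350. It had 13.4, 11.1 and 11 CPM in 2-cell DMEM libraries and 14, 13.1 and 10.3 CPM in 2-cell FLI libraries. In the 4-cell libraries it had 787, 663 and 815 CPM in DMEM and 609, 588 and 724 CPM in FLI. All 4-cell libraries were far above all 2-cell libraries, with a log2 fold change of 5.99 (adjusted p = 1e-11, SE 0.287) in DMEM and 5.68 (adjusted p = 2e-11, SE 0.284) in FLI.

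DDX5, or p68, a coactivator and helicase of microRNA processing on chromosome 12, 14571951 to 14580742, was already abundant at the 2-cell stage with 259.8, 250.0 and 287 CPM in DMEM and 267, 270.2 and 292 CPM in FLI. The 4-cell libraries held 1298, 1095 and 1373 CPM and 972, 1133 and 1335 CPM, without overlap between the stages. Its log2 fold change was 2.24 (adjusted p = 8.18e-08, SE 0.221) in DMEM and 2.05 (adjusted p = 2.55e-07, SE 0.22) in FLI, and it overlaps CEP95 on the opposite strand. DDX1, a member of the tRNA ligase complex, rose by 1.36 in DMEM and 0.97 in FLI. DDX20, the Gemin3 protein of the SMN complex, had -0.37 and -0.04 and did not pass.

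All 5 helicases of translation, storage and decay of mRNA rose in both media (median log2 fold change 1.50 in DMEM and 1.49 in FLI). Among all genes 35.2% rose in DMEM and 34.6% in FLI. DHX29, which helps the small ribosomal subunit scan structured leaders, rose from 7.36, 6.34 and 9.70 CPM to 65.4, 94.9 and 45.3 CPM in DMEM. In FLI it rose from 9.45, 7.06 and 6.26 CPM to 69.5, 59.9 and 53.5 CPM, and the stages did not overlap in either medium. Its log2 fold change came to 3.12 (adjusted p = 6.42e-05, SE 0.532) in DMEM and 3.02 (adjusted p = 0.000103, SE 0.537) in FLI.

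DDX3X on the X chromosome (36988031 to 37018202) went from 362, 362 and 391 CPM to 1161, 1187 and 1358 CPM in DMEM and from 351, 352 and 340.0 CPM to 1069, 1038 and 1263 CPM in FLI. The replicates of a group were close to each other and the stages were apart, with a log2 fold change of 1.73 (adjusted p = 1.11e-07, SE 0.175) in DMEM and 1.69 (adjusted p = 1.62e-07, SE 0.175) in FLI. DDX6, which keeps stored mRNAs silent and activates decapping, rose by 1.50 and 1.26. DHX36, which unwinds G-quadruplexes, rose by 1.46 and 1.46, and DHX34, a factor of nonsense-mediated decay, by 1.49 and 1.49.

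Of the 3 helicases of nuclear export, the counterparts of yeast Dbp5 at the nuclear pore rose. DDX19B rose from 10.6, 8.83 and 6.99 CPM to 55.8, 59.8 and 32.8 CPM in DMEM and from 11.5, 7.39 and 8.27 CPM to 66.3, 54.1 and 47.3 CPM in FLI, a log2 fold change of 2.49 (adjusted p = 8.07e-05, SE 0.435) and 2.64 (adjusted p = 5.01e-05, SE 0.439). DDX19A rose less, from 70.7, 68.4 and 73.1 CPM to 138, 135 and 119 CPM in DMEM and from 76.8, 76.4 and 67.6 CPM to 151, 113 and 141 CPM in FLI, with 0.88 (adjusted p = 0.000557, SE 0.189) and 0.88 (adjusted p = 0.000627, SE 0.189). For both genes every 4-cell library was above every 2-cell library. They are near-identical neighbours on chromosome 6, DDX19B from 13325351 to 13359459 and DDX19A from 13368661 to 13393340, so reads that fit both could have been split, and each overlaps an unnamed gene on the opposite strand. DDX25 had between 0 and 3.21 CPM in all libraries and did not pass in any comparison.

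Of the 7 members that fell in both media, 4 were outside these groups. DHX58, known as LGP2, a regulator of the RIG-I-like sensors of viral RNA on chromosome 12, 20647699 to 20656683, had 134, 138 and 134 CPM in 2-cell DMEM libraries and 162, 144 and 147 CPM in 2-cell FLI libraries. It had 9.84, 16.8 and 18.9 CPM and 14.8, 20.8 and 16.8 CPM in the 4-cell libraries of the 2 media, all far below the 2-cell level. This was a log2 fold change of -3.15 (adjusted p = 1.64e-05, SE 0.474) in DMEM and -3.11 (adjusted p = 1.8e-05, SE 0.471) in FLI. DDX60, a partner of the same sensors, had -0.47 and -0.61, which did not pass.

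DDX11, a DNA helicase of sister chromatid cohesion that carries a DEAH motif, had the second largest fall. It went from 208, 205 and 213 CPM to 29.5, 45.6 and 32.8 CPM in DMEM and from 202, 165 and 161 CPM to 38.4, 40 and 58.9 CPM in FLI, without overlap. The log2 fold change was -2.54 (adjusted p = 0.000121, SE 0.46) in DMEM and -1.95 (adjusted p = 0.00115, SE 0.45) in FLI, and the gene overlaps an unnamed gene on the opposite strand. DHX32, a little-studied relative of the splicing helicases, went from 72.9, 48.8 and 70.2 CPM to 23.9, 21.4 and 11.6 CPM in DMEM and from 58.1, 65.9 and 63.8 CPM to 17.7, 25.7 and 13.5 CPM in FLI. Its groups did not overlap either, with -1.75 (adjusted p = 5.67e-05, SE 0.296) and -1.72 (adjusted p = 7.15e-05, SE 0.295), and BCCIP lies over it on the opposite strand. DHX57 fell by -1.0 in DMEM and -0.92 in FLI.

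The mitochondrial helicases DHX30 and DDX28, both factors of mitochondrial ribosome assembly, did not rise. DHX30 had 88.5, 103 and 81 CPM in 2-cell and 40.1, 46.8 and 43.7 CPM in 4-cell DMEM libraries, and 92.2, 74.9 and 66.6 CPM and 50, 70 and 55.7 CPM in FLI. By CPM the stages were apart in DMEM and overlapped in FLI, with log2 fold changes of -1.06 (adjusted p = 0.0106, SE 0.335) and -0.41 (adjusted p = 0.29, SE 0.332). By TPM they were apart in both media. DDX28 had -0.36 and 0.31 and did not pass. DHX40 rose in DMEM by 0.72, a call kept in 15 of 26 settings, with 0.22 in FLI, and DDX59 had -0.32 and -0.28 and did not pass.

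The 9 oocyte markers fell over the same step, 6 of 9 in DMEM and 7 of 9 in FLI, with a median log2 fold change of -2.52 in each, and their part in the fall of DHX58, DDX11 and the other members was not tested. Helicases and partners with other names were counted for comparison. Of 17 helicases under other names 9 rose and 4 fell in each medium (52.9% and 23.5%, against 35.2% and 28.4% of all genes in DMEM and 34.6% and 27.2% in FLI), with a median log2 fold change of 0.79 in DMEM and 0.86 in FLI. Among them EIF4A1, the helicase of the cap-binding complex, rose by 2.74 (adjusted p = 3.29e-10, SE 0.178) in DMEM, and SNRNP200, which unwinds U4 from U6, by 2.82 (adjusted p = 7.86e-10, SE 0.197). HELZ2, a nuclear receptor coactivator, was between 0 and 1.43 CPM in the 2-cell and between 595 and 857 CPM in the 4-cell libraries. Of 20 proteins with a G-patch, the domain that switches on DHX15 and other DEAH helicases, 13 rose and 2 fell in DMEM (65% and 10%, median 1.09) and 12 rose and 2 fell in FLI (60% and 10%, median 0.96). ZGPAT and NKRF, both with a G-patch, were at most 1.73 CPM in the 2-cell libraries and at least 76.8 CPM in the 4-cell libraries, and RBM10, a splicing regulator, rose by 3.21 (adjusted p = 1.54e-10, SE 0.196) in DMEM. Of 18 activators and partners of DEAD box proteins 8 rose and 5 fell in DMEM (44.4% and 27.8%), and 9 rose and 6 fell in FLI (50% and 33.3%), with a median log2 fold change of 0.31 in each. In DMEM these shares were near those of all genes. EIF4G1, the scaffold that activates EIF4A1, rose by 4.81 (adjusted p = 4.42e-12, SE 0.208) in DMEM, RBM8A of the exon junction complex by 2.37 and CNOT1, the scaffold of the deadenylase that recruits DDX6, by 1.68. The largest fall of each list, picked after the values were seen, was that of MOV10, an RNA helicase known to restrain retrotransposons, at -2.09 in DMEM and -1.70 in FLI, of CMTR1, a G-patch protein that methylates the mRNA cap, at -2.20 and -2.15, and of EIF4ENIF1, a partner of DDX6 that binds EIF4E, at -2.04 and -1.78.

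The second comparison followed the helicases from the 4-cell to the 8-cell stage. In DMEM no member passed, nor did any of the 13187 genes by edgeR (0% of genes higher and 0% lower). At an unadjusted p under 0.05, 1 member was higher and 12 were lower, against 5.85% and 8.61% of all genes, and DESeq2 called 0 members higher and 5 lower (1.25% and 2.39% of the genes to which it gave an adjusted p). In FLI no member rose (0.804% of all genes did) and 8 fell (17%, against 2.24% of all genes). The median log2 fold change of the family was -0.18 in DMEM and -0.26 in FLI, where those of all genes were -0.04 and 0.03. The 8 that fell were DDX56, DDX27, DDX49 and DDX54 of ribosome assembly, DDX23, DHX38 and DDX39A of splicing, and DDX59, a protein tied to cilia and facial development. All but DDX59 had risen from the 2-cell to the 4-cell stage in at least 1 medium. The 2 steps share the 4-cell libraries.

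In FLI, DDX56 went from 95.7, 95.7 and 87.6 CPM at the 4-cell stage to 49.6, 41 and 46.8 CPM at the 8-cell stage. Its log2 fold change was -1.02 (adjusted p = 0.0427, SE 0.263), a call kept in only 6 of 26 settings. DDX59 went from 46.3, 61.1 and 49.7 CPM to 25.3, 34.1 and 21.7 CPM, with -0.94 (adjusted p = 0.0282, SE 0.21). DDX27 went from 762, 748 and 819.9 CPM to 474, 350.4 and 422 CPM, with -0.90 (adjusted p = 0.0238, SE 0.19). For each of these 3 genes every 8-cell library was below every 4-cell library. DDX23 went from 252, 199.6 and 226 CPM to 141, 107 and 130.5 CPM, with -0.84 (adjusted p = 0.0298, SE 0.189). Without the 3 libraries that stood apart the log2 fold change of DDX23 was -0.69 and its call was lost. DDX49 went from 129, 142 and 122 CPM to 83, 72.1 and 64.9 CPM, with -0.84 (adjusted p = 0.0209, SE 0.171), and these groups did not overlap either. All 8-cell FLI libraries were above all 4-cell FLI libraries for 2 members and below for 16, against 6.81% and 12.6% of all genes. In DMEM the log2 fold change was -0.18 for DDX56, -0.82 for DDX59, -0.36 for DDX27, -0.15 for DDX23 and -0.54 for DDX49. DDX54, DHX38 and DDX39A had -0.83, -0.82 and -0.76 in FLI and -0.44, -0.57 and -0.48 in DMEM.

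**Figure D4:**
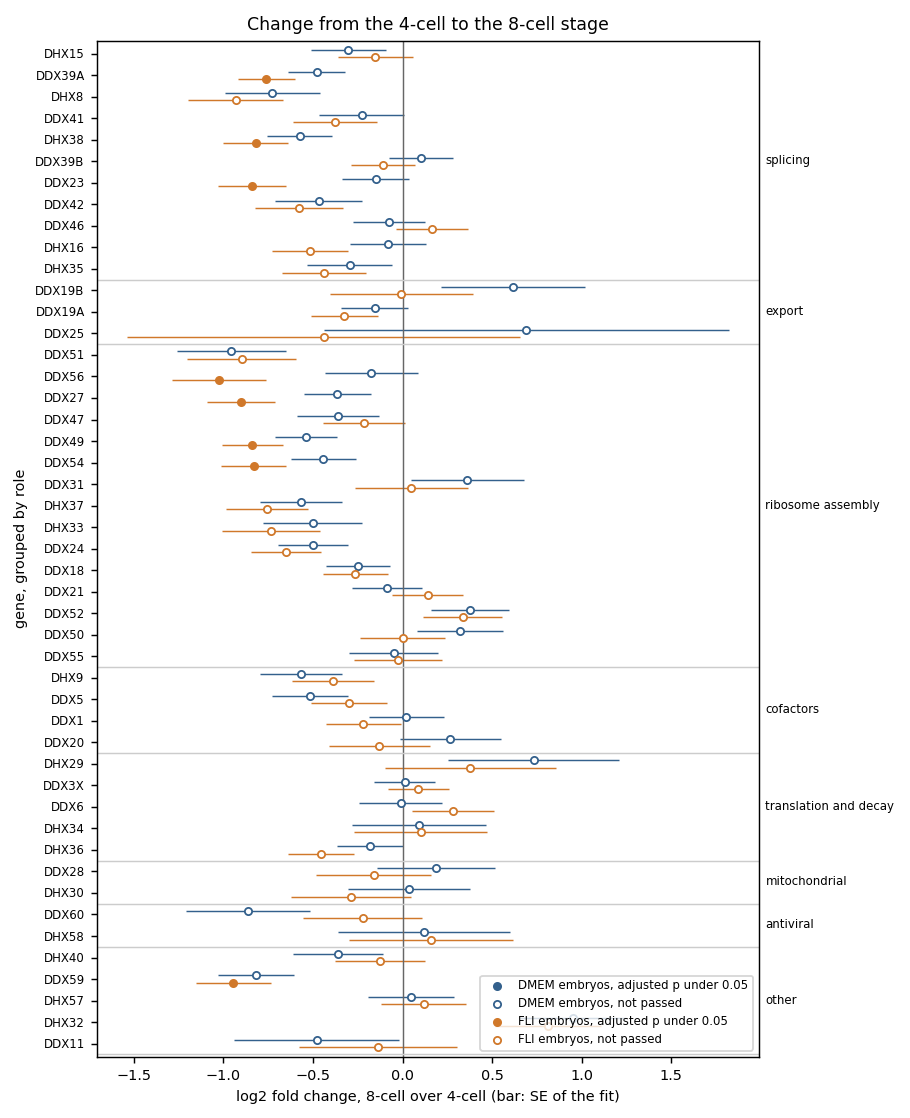
Log2 fold change from the 4-cell to the 8-cell stage (horizontal axis, bars are the SE of the fit over 3 libraries a group) for the 47 genes in the same order as before (vertical axis), in DMEM (blue) and FLI (orange). The 8 filled points passed an adjusted p of 0.05 and all lie below 0 in FLI, between -1.02 for DDX56 and -0.76 for DDX39A. None of these calls held in all of the 26 settings run.

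The folds of these 8 members moved less than their calls. Over the 26 settings run the log2 fold change stayed between -1.10 and -0.84 for DDX56, -1.21 and -0.78 for DDX59, -1.03 and -0.71 for DDX27, -0.95 and -0.65 for DDX23, and -0.94 and -0.67 for DDX49. It stayed between -0.97 and -0.67 for DDX54, -0.98 and -0.62 for DHX38 and -0.87 and -0.59 for DDX39A. None of the calls held in all of the 26 settings, and leaving out 1 library gave between 0 and 20 members lower. The call was kept in 6 settings for DDX56, 16 for DDX59, 20 for DDX27, 17 for DDX23 and 18 for DDX49. It was kept in 16 for DDX54, 16 for DHX38 and 19 for DDX39A. The count was 0 without any single 4-cell FLI library or without 8-cell FLI replicate 1, and 1 without 4-cell DMEM replicate 2. It was 4 without 8-cell DMEM replicate 2 or 8-cell FLI replicate 3, 5 without 2-cell FLI replicate 1 and 20 without 8-cell FLI replicate 2. Without 8-cell FLI replicate 2 there were also 3 members lower in DMEM. The shares of all genes called with 1 library left out are not given here, so these counts cannot be read as particular to the members. Without all 3 libraries that stood apart, which leaves 1 8-cell FLI library assumed to vary like the others, 11 members were lower and 1 higher in FLI (5.14% and 3.61% of all genes), and 11 were lower and 4 higher in DMEM (10% and 4.06% of all genes). The members higher in DMEM in that fit were DHX29, at 1.07 (adjusted p = 0.00369), DHX32, at 1.12 (adjusted p = 0.00806), DDX19B, at 0.83 (adjusted p = 0.0253), and DDX52, at 0.50 (adjusted p = 0.0244), and DDX52 was also the 1 higher in FLI, at 0.73 (adjusted p = 0.0126).

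Most, but not all, of the members that had fallen in both media by the 4-cell stage were highest in 8-cell FLI replicate 2. Among the 6 8-cell libraries it was the highest for 5 of the 7 members that fell in both media, and the lowest for 8 of the 27 that rose in both, where replicate 3 of the same group was the lowest for 13. DHX32 and DDX50 were instead highest in 8-cell DMEM replicate 2, and DDX50 was lowest in 8-cell FLI replicate 2. How often all genes that fell or rose had these extremes was not counted. DHX58 had 10.3, 40 and 6.64 CPM and DDX11 27, 84.1 and 11.8 CPM in the 8-cell FLI libraries, replicate 2 being the high one in each. DHX29 had 106, 18.5 and 115 CPM and DDX19B 72.2, 17.7 and 78.1 CPM in them, replicate 2 being the low one. The summed oocyte markers of these libraries were 1418, 3906 and 286 CPM, and their part in the spread was not tested.

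Between the 2-cell and the 8-cell stage 27 members were higher in DMEM (57.4%, against 35.9% of all genes) and 13 lower (27.7%, against 29%). In FLI 25 were higher (53.2%, against 34.6%) and 12 lower (25.5%, against 24%). The median log2 fold change of the family was 0.73 in DMEM and 0.58 in FLI, and that of all genes 0.19 and 0.24. Without the 3 libraries that stood apart 29 were higher and 12 lower in DMEM (37.5% and 30.8% of all genes), and 26 and 12 in FLI (31.3% and 24.6%). DHX15 had the largest rise in FLI, of 5.82 (adjusted p = 1.87e-11, SE 0.27), and DDX51 in DMEM, of 5.70 (adjusted p = 1.82e-09, SE 0.415). The 8-cell libraries of DHX15 held 228, 361 and 352 CPM in DMEM and 290.4, 311 and 259 CPM in FLI, all above the 2-cell level. DHX9 had 423, 572 and 532 CPM and 433, 694 and 338 CPM, and DDX5 773, 971 and 884 CPM and 869, 1268 and 657 CPM, again above every 2-cell library. DDX42 and DDX60, which had not passed at the 4-cell stage, were lower at the 8-cell than at the 2-cell stage in both media, DDX42 by -0.87 and -0.85 and DDX60 by -1.34 and -0.84. DDX23 was higher than at the 2-cell stage in DMEM, by 0.46 (adjusted p = 0.04, SE 0.188), and lower in FLI, by -0.45 (adjusted p = 0.0472, SE 0.188). Without the 3 libraries these values were 0.52 (adjusted p = 0.00707) and -0.30 (adjusted p = 0.246), so that the FLI call was lost, and DDX42 and DDX60 kept theirs.

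The third comparison asked whether the maturation medium changed the helicases. No member and no gene passed between FLI and DMEM at any stage or over the stages, and the percentage called was 0% of all genes in both directions. At an unadjusted p under 0.05, 0 members were higher and 1 was lower in FLI at the 2-cell stage (1.36% and 0.796% of all genes), and 0 and 0 at the 4-cell stage (1.15% and 1.17%). At the 8-cell stage 0 were higher and 6 lower (3.43% and 4.42% of all genes), and over the stages 0 and 4 (1.57% and 2.98%). At the 8-cell stage 10 of 47 members had a log2 fold change above 0, where 53.7% of all genes did. DESeq2 called 0 members higher and 3 lower in FLI at the 8-cell stage (0.0288% and 1.38% of the 3471 genes to which it gave an adjusted p, among them 25 members). It called none at the 2-cell stage (0.00758% and 0%), the 4-cell stage (0% and 0%) or over the stages (0% and 0.22%). Without the 3 libraries that stood apart, edgeR called 0 members in each, against 0% to 0.0281% of all genes.

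DDX23 had the smallest p of the family in this comparison. At the 8-cell stage it had 141, 107 and 130.5 CPM in FLI and 222, 274 and 250.0 CPM in DMEM, so that the highest FLI library was below the lowest DMEM library. The log2 fold change was -0.98 (unadjusted p = 6.2e-05, adjusted p = 0.186, SE 0.19) by edgeR and -0.98 (adjusted p = 0.00113) by DESeq2. In 2-cell embryos the gene had 194, 168 and 156 CPM in FLI and 171, 194 and 179 CPM in DMEM, with overlap. DDX27 had 474, 350.4 and 422 CPM in 8-cell FLI and 550.0, 733 and 740.3 CPM in 8-cell DMEM libraries, with -0.70 (unadjusted p = 0.00167, adjusted p = 0.45, SE 0.19). DDX39A had 145, 149 and 132 CPM and 178, 219.6 and 192 CPM, with -0.47 (unadjusted p = 0.00866, adjusted p = 0.472, SE 0.159). Neither gene overlapped between the media at this stage. Here 0 members had all FLI libraries above all DMEM libraries and 4 had them below, against 3.25% and 5.63% of all genes. Without the 3 libraries the values were -0.89 (adjusted p = 0.159) for DDX23, -0.64 (adjusted p = 0.29) for DDX27 and -0.51 (adjusted p = 0.411) for DDX39A. DESeq2 gave -0.70 (adjusted p = 0.05) for DDX27 and -0.49 (adjusted p = 0.0454) for DDX39A. Over the stages the smallest p-values were those of DDX23, with -0.44 (unadjusted p = 0.00344, adjusted p = 0.999, SE 0.135), DDX39A, with -0.26 (unadjusted p = 0.0115, adjusted p = 0.999, SE 0.0951), and DHX15, with -0.30 (unadjusted p = 0.0289, adjusted p = 0.999, SE 0.128).

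**Figure D5:**
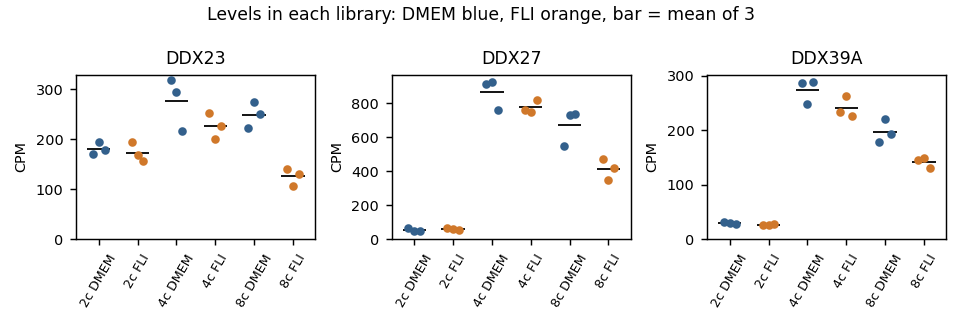
CPM in each of the 3 libraries (points) of the 6 groups of stage (2c, 4c, 8c) and medium (DMEM blue, FLI orange), with the mean as a bar and axes from 0, for the 3 genes of smallest p between the media at the 8-cell stage. At that stage the FLI libraries lie below the DMEM libraries for DDX23, DDX27 and DDX39A, with adjusted p of 0.186, 0.45 and 0.472 by edgeR.

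In 2-cell embryos DHX15 had a log2 fold change of FLI over DMEM of -0.59 (unadjusted p = 0.0323, adjusted p = 1, SE 0.253), with every FLI library below every DMEM library. DDX1 had 118, 129 and 145 CPM in FLI and 108, 88.1 and 106 CPM in DMEM (0.38), and DDX50 had 34.1, 44 and 35.1 CPM and 30.1, 27.7 and 33.1 CPM (0.32), both without overlap between the media. In 4-cell embryos DDX52 had 148, 165 and 166 CPM in FLI and 247, 207 and 191 CPM in DMEM, a log2 fold change of -0.43 (unadjusted p = 0.0649, adjusted p = 1, SE 0.219). DDX46 had 394, 418 and 546 CPM and 588, 563 and 561 CPM (-0.33), and DDX28 had 14.8, 17.3 and 12.7 CPM and 13.1, 9.92 and 8.50 CPM (0.50). At that stage the media did not overlap for DDX52 and DDX46 and overlapped for DDX28. All FLI libraries were above all DMEM libraries for 3 members and below for 6 in 4-cell embryos, against 4.51% and 5.31% of all genes. The same held for 3 and 4 members in 2-cell embryos, against 5.91% and 6.04% of all genes.

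Tests of whether the medium changed a step between stages gave no call. For the step from the 2-cell to the 4-cell stage 0 members passed even an unadjusted p of 0.05 in either direction (0.902% of all genes above 0 and 1.65% below), and the smallest p-values were those of DDX52, at -0.49 (unadjusted p = 0.127, adjusted p = 1, SE 0.309), DDX28, at 0.68 (unadjusted p = 0.153, adjusted p = 1, SE 0.453), and DHX40, at -0.49 (unadjusted p = 0.177, adjusted p = 1, SE 0.351). DHX40 had 35.9, 32.8 and 31.1 CPM in 2-cell and 59.8, 52.2 and 52.2 CPM in 4-cell DMEM libraries and 36.9, 34.8 and 39.8 CPM and 41.7, 38.9 and 49.7 CPM in FLI. The calls of DHX40, DDX23, DHX16 and DHX30 in DMEM alone and of DDX46 and DDX52 in FLI alone are thus not shown to differ between the media. For the step from the 4-cell to the 8-cell stage 0 members were above 0 and 2 below at that p (1.91% and 1.16% of all genes). DDX23 had -0.69 (unadjusted p = 0.0181, adjusted p = 1, SE 0.265), DDX56 -0.85 (unadjusted p = 0.0337, adjusted p = 1, SE 0.369) and DDX27 -0.54 (unadjusted p = 0.0586, adjusted p = 1, SE 0.267).

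The last comparison set 4-cell FLI against 8-cell DMEM embryos, and here too no member and no gene passed by edgeR (0% in both directions). At an unadjusted p under 0.05, 8 members were higher and 2 lower in 4-cell FLI embryos, against 8.68% and 6.67% of all genes, and DESeq2 called 3 higher and 2 lower (2.81% and 1.72% of the genes to which it gave an adjusted p). The smallest p-values were those of DDX49, at 0.64 (unadjusted p = 0.00142, adjusted p = 0.128, SE 0.171), DDX52, at -0.81 (unadjusted p = 0.00171, adjusted p = 0.133, SE 0.22), and DHX38, at 0.65 (unadjusted p = 0.00212, adjusted p = 0.136, SE 0.181). DDX52 had 148, 165 and 166 CPM in 4-cell FLI and 226, 282 and 329.6 CPM in 8-cell DMEM libraries, and DHX38 had 258, 263 and 298 CPM and 149, 194 and 179 CPM. DDX49 had 129, 142 and 122 CPM in 4-cell FLI and 89.7, 90.3 and 72.1 CPM in 8-cell DMEM libraries. The groups did not overlap for any of the 3 genes. How many of all genes did not overlap was not counted for these groups. For the fit without 8-cell FLI replicate 2 alone, which follows, the share of all genes called is not given here. Without 8-cell FLI replicate 2, 4 members were higher and 1 lower, and without the 3 libraries that stood apart 6 were higher and 3 lower (10.8% and 5.14% of all genes), DHX29 being the lowest at -1.23 (adjusted p = 0.000763). In that fit DDX49 had 0.70 (adjusted p = 0.00663), DDX52 -0.93 (adjusted p = 0.000145) and DHX38 0.56 (adjusted p = 0.00952).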

How the data were processed

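Total RNA of pooled embryos was isolated with RNAqueous Micro and turned into stranded libraries with a SMARTer Pico kit. The authors mapped reads with bowtie2 and took expression from Illumina Dragen, whose versions were not given in the sources used here. Submitters' notes name the build Sscrofa11.1. The deposited counts, whole numbers per gene and library, were used for all tests and for CPM. The TPM of the authors served for levels per length, and the RPKM of the authors as an alternative for their order. The 18 deposited columns of CPM were not used.

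The analysis used edgeR 4.0.16 under R 4.3.3: filterByExpr by group, TMM, and glmQLFit and glmQLFTest on 6 group means over 18 libraries, with stage and medium as additive terms for the media over the stages. The p-values were adjusted by Benjamini-Hochberg over 13187 genes, with a threshold of 0.05, and the SE is the log2 fold change over the root of the F statistic. The alternatives were DESeq2 1.42.0, other normalizations, no filter, only the groups compared, a replicate block and libraries left out. Figures used matplotlib 3.10.9.

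Members and lists were chosen with earlier results of these data known. Values of every library are given for the 2 members of each role with the largest change from the 2-cell to the 4-cell stage in DMEM and for its most abundant member, for the 4 largest changes after the 4-cell stage, and for the 3 smallest p-values between media. Most other members are given by their changes. Intervals and floors cover counting error only. DDX10, DDX17, DDX43, DDX53 and DDX58 were not analysed here.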

Additional observations from a re-analysis of the deposited data

How the results depend on the processing

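The counts of members called from the 2-cell to the 4-cell stage stayed within 1.5 times under every alternative run. No member picked for values of every library reversed in the comparison that picked it. DDX21 and DDX25, which did not pass, changed sign, from -0.12 to 0.12 and from -1.21 to 0.86 in DMEM. By DESeq2, 5 members were lower in 8-cell than 4-cell DMEM embryos, 3 were lower in FLI than DMEM at the 8-cell stage, and 3 were higher and 2 lower in 4-cell FLI than 8-cell DMEM embryos. From the 4-cell to the 8-cell stage in FLI, 5 members were lower when scaled by library size only, which moved the median of all genes from 0.03 to 0.19, 1 with no filter on low counts, and 0 with only the groups compared, where the fall from the 2-cell to the 8-cell stage in FLI was called for 6. Without the 3 libraries that stood apart, 4 members were higher and 11 lower in DMEM and 1 higher in FLI after the 4-cell stage, and 6 were higher and 3 lower in 4-cell FLI than 8-cell DMEM embryos. The cause of these differences was not tested. For the fits that changed the scaling, the filter, the groups compared or the block, the shares of all genes called are not given here.

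Leaving out 1 library gave 26 to 29 members higher and 7 to 12 lower from the 2-cell to the 4-cell stage in DMEM, and 25 to 27 and 7 to 10 in FLI. After the 4-cell stage it gave 0 higher and 0 to 3 lower in DMEM, and 0 higher and 0 to 20 lower in FLI. Between the 2-cell and 8-cell stages it gave 22 to 26 higher and 10 to 13 lower in DMEM, and 20 to 25 and 10 to 14 in FLI. Between 4-cell FLI and 8-cell DMEM embryos it gave 0 to 4 higher and 0 to 1 lower, and between the media and in the interactions 0. The shares of all genes called in these fits are not given here.

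With the replicate number as a block, 29 members were higher and 9 lower from the 2-cell to the 4-cell stage in DMEM, 27 and 9 in FLI, and 7 were lower from the 4-cell to the 8-cell stage in FLI, and it moved no other count by over 1.5 times. Deviations of libraries with the same number correlated at 0.02, -0.01 and 0.02 at the 2-cell, 0.13, 0.03 and 0.25 at the 4-cell and -0.27, -0.24 and 0.44 at the 8-cell stage, so the numbers were not taken as pairs. By RPKM in place of TPM, 43 of the 47 members kept their rank, and none moved by more than 1. Of the values of members so picked, in those comparisons and under the alternatives, 1278 stayed on their side of the threshold, 59 lost the call and 10 gained it. Depth limited DDX51, DDX56 and DDX25, which had few counts in 2-cell libraries.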
